A study of Mus musculus with 8 samples.

Results

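Prostaglandin and vasopressin signalling is represented on the arrays by 10 genes: the prostaglandin E2 receptor genes Ptger1, Ptger2, Ptger3 and Ptger4, the synthesis genes Ptgs1, Ptgs2 and Ptges, the breakdown gene Hpgd and the vasopressin receptor genes Avpr2 and Avpr1a. The members were all non-control probes whose systematic name is a RefSeq transcript of 1 of these genes, which gave 14 probes of the 10 genes, among 55681 probes and 20887 named genes in all. The study hybridised 8 Agilent 2-colour arrays of mouse genes, with 1 sample of ureteric bud cells on each. The ureteric bud is the branching epithelial tube from which the collecting ducts form, and its cells were sorted as GFP-positive cells from kidneys of C57BL/6 mice on postnatal day 0. The wild-type group (WT, genotype "control") had 4 samples, and the DOT1-null group (KO, a conditional knockout of Dot1 from Hoxb7-positive cells) had 4. Both groups share the strain, the age, the tissue and the sort. The promoters behind GFP and the deletion, the sex of the animals, the number of animals or litters in a sample and any pooling are not given in the sources used here. The spread behind each p-value is thus that between these samples, which may be partly technical.

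Prostaglandin E2 is made from arachidonic acid by a cyclooxygenase (Ptgs1 or Ptgs2) followed by a prostaglandin E synthase such as Ptges, acts on the receptors EP1 to EP4, and is inactivated by Hpgd. In the collecting duct, vasopressin acts on the V2 receptor, which raises cyclic AMP and brings aquaporin-2 water channels to the apical membrane, while prostaglandin E2 acts locally on the same cells and is known to oppose this response. EP2, EP4 and V2 couple to stimulatory G proteins, EP3 to inhibitory G proteins, and EP1 and V1a to release of calcium.

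Where 2 probes read a gene, the gene was described at the brighter one, with the other beside it. Promoters are printed for the 3 members with 2 probes whose ratios moved most between arrays, Ptger3, Ptges and Avpr2, as the 250 bases before the start that RefSeq gives on GRCm38.p6, 5′ to 3′ on the gene's strand. Of the 10 members, 9 matched the table of promoters (all but Ptger1). Capitals mark matches on either strand to GGGCGG (the GC box; CCGCCC on the other strand) or TATAAA (the TATA box; TTTATA on the other strand). Ptger3 lies at chr3:157566626-157566875 on the plus strand, Ptges at chr2:30903298-30903547 on the minus strand and Avpr2 at chrX:73891852-73892101 on the plus strand.
Ptger3: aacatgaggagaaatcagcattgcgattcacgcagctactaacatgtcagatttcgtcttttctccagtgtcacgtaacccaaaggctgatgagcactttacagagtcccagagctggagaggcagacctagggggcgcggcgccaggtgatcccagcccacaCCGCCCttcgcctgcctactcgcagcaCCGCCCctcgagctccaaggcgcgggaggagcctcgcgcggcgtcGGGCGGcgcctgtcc
Ptges: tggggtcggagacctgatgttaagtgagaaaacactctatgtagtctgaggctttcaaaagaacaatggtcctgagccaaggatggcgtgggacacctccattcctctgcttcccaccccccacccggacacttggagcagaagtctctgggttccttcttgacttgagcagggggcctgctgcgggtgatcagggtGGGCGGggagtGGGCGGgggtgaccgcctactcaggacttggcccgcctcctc
Avpr2: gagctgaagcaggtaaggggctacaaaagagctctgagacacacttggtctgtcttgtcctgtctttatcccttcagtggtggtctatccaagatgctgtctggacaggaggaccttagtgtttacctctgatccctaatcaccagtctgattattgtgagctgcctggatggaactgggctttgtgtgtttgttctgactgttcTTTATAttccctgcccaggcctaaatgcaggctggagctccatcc
The Ptger3 window held 3 GC boxes and the Ptges window 2, and neither held TATAAA. The Avpr2 window held no GC box and 1 TATAAA, on the reverse strand. TGACGTCA (the cyclic AMP response element) and CACGTG (an E-box) were also searched on both strands, and none of the 9 members' windows held either. No matches of different motifs overlapped in the windows printed. Among 32851 promoter windows of the same length, 32.7% held GGGCGG, 12.4% TATAAA, 1.55% TGACGTCA and 6.02% CACGTG. These matches describe the letters and are not evidence that a factor binds there.

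All values below are log2 ratios of a sample (Cy5) to 1 reference (Cy3), the RNA of WT replicate 3. This reference lay on every array, so that the array of WT replicate 3 held that RNA in both dyes. Its ratio can still differ from 0 where the dyes are read differently at a probe, and such an effect is shared by all arrays. Arrays are named by group and replicate number. KO 2 lay among the WT arrays on the first principal component of all ratios, at -21.89 against -28.65 to -20.70 for WT, whereas the values of KO 1, KO 3 and KO 4 were 40.85, 27.14 and 54.76. KO 3 was the brightest array, with a median Cy5 signal of 612 against 87 to 127 on the others, and had 8392 spots marked by the scanner software against 363 to 448. The share of spots with Cy5 well above background was 50.1% to 53.7% in WT and 56.4% to 94.7% in KO. The KO arrays filled one row of the slide and the WT arrays the other row. Genotype and position on the slide therefore cannot be told apart. The targeted gene, Dot1l, had a log2 difference (KO minus WT) of 0.18 ± 0.11 (SE; limma adjusted p = 0.341). The sources used here do not say whether its probe lies in the deleted part, and its value does not check the labels.

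The sorted cells carried the markers of their label and those of other kidney cells. Of 15 markers of ureteric bud and collecting duct epithelium, all 15 were well above background on all 8 arrays, as were 6 of 7 principal cell and 8 of 8 intercalated cell markers. So were 4 of 5 markers of the loop of Henle, 5 of 5 of the proximal tubule, 5 of 5 of podocytes, 6 of 6 of nephron progenitors, 10 of 11 of stroma and smooth muscle, 8 of 8 of endothelium, 9 of 10 of macrophages and leukocytes and 3 of 5 of erythroid cells. In these bulk samples, fewer cells of a type and less RNA per cell cannot be told apart.

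No member passed the test between KO and WT. Of the 14 member probes 13, of 9 genes, were bright enough to test, Ptger2 being the exception. Among the 13, 0 passed limma's adjusted p of 0.05, which 0.00632% of all 31667 tested probes did (2 probes). At an unadjusted p under 0.05 there were 2 member probes, 1 of Ptger1 and 1 of Ptges, beside 7539 of all tested probes (23.8%). KO minus WT was above 0 at 7 member probes and below 0 at 6, with a median of 0.0011 against -0.02 over all tested probes. Ptger1 was the single member with no overlap between the KO and the WT arrays, and it was lower in KO, as were 7.82% of the 28477 probes with values on all arrays.

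**Figure D1:**
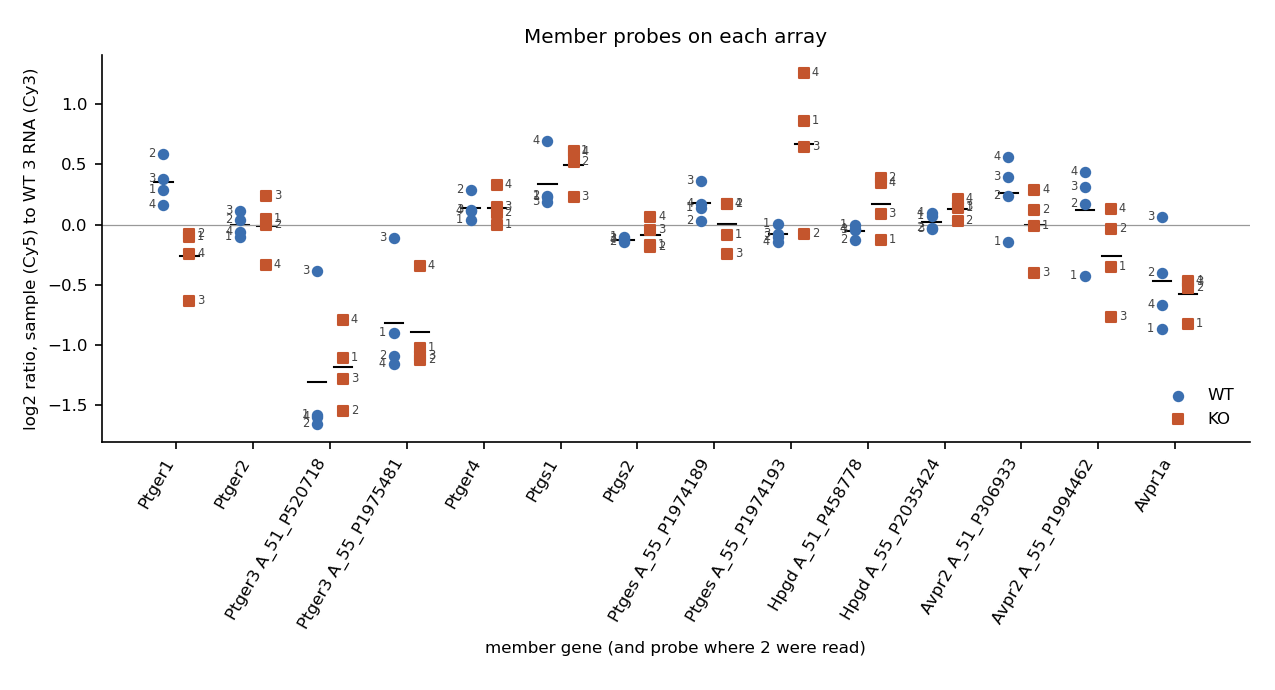
Log2 ratio of the sample (Cy5) to the RNA of WT replicate 3 (Cy3) at each of the 14 member probes. Each point is 1 array, numbered by replicate, blue circles for WT and orange squares for KO, with the group mean as a short line. Ptger1 is the member whose groups are apart, and at the brighter Ptges probe KO 2 lies with the WT arrays.

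Ptger1 encodes EP1, the receptor through which prostaglandin E2 raises calcium in collecting duct cells. Its log2 ratio was 0.29, 0.58, 0.38 and 0.16 on WT 1 to WT 4, and -0.10, -0.08, -0.63 and -0.25 on KO 1 to KO 4. Every KO array was below every WT array, KO 2 included, and KO 3 was the lowest. The WT mean was 0.35 ± 0.18 (SD, n = 4) and the KO mean -0.26 ± 0.26 (SD, n = 4). The log2 difference was -0.62 ± 0.14 (SE; 95% interval -0.93 to -0.30), or 1.53-fold lower in KO, with a limma adjusted p of 0.102 over all tested probes and an unadjusted p of 0.0015. Without KO 2 it was -0.68 (limma adjusted p = 0.0124), a call that 22.5% of all 27508 probes tested without that array also received, and 12.4% of them as lower. Without KO 3 it was -0.49 (adjusted p = 0.163), where 0.0265% of 30147 probes were called, and without both arrays -0.53 (adjusted p = 0.0210), where 24.9% of 29238 probes were called.

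Ptger1 was read by 1 probe (NM_013641), with a background-corrected Cy5 intensity of 797 to 1046.5 in WT and 545 to 986.5 in KO. Among 13363 candidate gene symbols, the ratios most like those of Ptger1 over the 8 arrays were those of Txlna (r = 0.990), which takes part in vesicle traffic, Sdf2l1 (r = 0.989), a protein of the endoplasmic reticulum, and Prim2 (r = 0.982), a subunit of DNA primase. Of 28476 other probes, 110 (0.386%) had a correlation above 0.95 with Ptger1. These correlations describe 8 arrays that share 1 reference RNA. The difference of Txlna, Sdf2l1 and Prim2 was -0.33, -0.69 and -0.53. Of the 9 tested markers of macrophages and leukocytes, 8 had a difference below 0 and 1 above, with a median of -0.34. The neutrophil genes S100a8 and S100a9 and the lysozyme gene Lyz2 had KO minus WT of -1.45 ± 0.31, -1.20 ± 0.32 and -0.39 ± 0.08 (SE; limma adjusted p = 0.101, 0.110 and 0.0989), without overlap of KO and WT. Lack of overlap with KO lower was found for 7.82% of the 28477 probes with values on all arrays. The other 6 markers overlapped between groups. Among these Tyrobp had -0.41, Fcer1g -0.34, Adgre1 -0.23 (-0.09 at its other probe) and the pan-leukocyte gene Ptprc -0.06. The macrophage receptor gene Csf1r had -0.01 (0.14 and 0.08 at its other probes). The integrin gene Itgam had 1.15 (-0.16 at its other probe). The median of the 9 leukocyte markers was -0.29 to 0.08 on the WT arrays and -0.43 to -0.24 on the KO arrays. Of the 15 ureteric bud markers, 8 had a difference below 0 and 7 above. KO and WT did not overlap for 4 of them, as for 11.4% of the probes with values on all arrays. Pax2, among these 4, had no value on KO 3. Hoxb7, Calb1 and Pax2 were the lower ones, at -0.71 ± 0.08, -0.54 ± 0.15 and -0.40 ± 0.09 (SE; limma adjusted p = 0.0638, 0.114 and 0.108), and Krt18 was the higher one, at 0.79 ± 0.19 (adjusted p = 0.108). The median of the bud markers was -0.12 to 0.18 in WT and -0.11 to 0.00352 in KO, and that of the 6 principal cell markers -0.52 to 0.35 and -0.03 to 0.62. The part of these cell types in the Ptger1 result was not tested.

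Ptger2, which encodes the stimulatory receptor EP2, was not measurable at this signal. Its Cy5 was well above background on 0 WT arrays and on 1 KO array, KO 3, which was also the brightest, and its Cy3 on 0 arrays. The ratio was between -0.10 and 0.11 in WT and between -0.34 and 0.23 in KO, with no fold given because both groups were at background.

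Ptger3 encodes EP3, the inhibitory receptor of the thick ascending limb and the collecting duct, and stood out for its spread within WT rather than for a difference from KO. At its brighter probe (A_51_P520718) the log2 ratio was -1.58, -1.66, -0.39 and -1.59 on WT 1 to WT 4 and -1.11, -1.55, -1.28 and -0.79 on KO 1 to KO 4. WT 3 was above all 7 other arrays, and the other 3 WT arrays were almost equal. At the second probe (A_55_P1975481) the ratio was -0.90, -1.09, -0.11 and -1.16 in WT and -1.03, -1.12, -1.09 and -0.34 in KO, again with WT 3 on top and KO 4 next. WT 3 exceeded the other arrays by 1.32 to 2.41-fold at the first probe and by 1.18 to 2.08-fold at the second, and 13.7% of all 28477 probes also had WT 3 above every other array. The WT SD of 0.61 at the brighter probe was exceeded by 1% of tested probes, and it was 0.04 without WT 3.

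The log2 difference of Ptger3 between KO and WT was 0.12 ± 0.28 (SE; 95% interval -0.50 to 0.75, limma adjusted p = 0.820) at the brighter probe and -0.08 ± 0.25 (SE; interval -0.64 to 0.48, adjusted p = 0.867) at the second, so neither direction was resolved. At the brighter probe it was 0.43 without WT 3 and 0.24 without KO 2. WT 3 and KO 4 were also the 2 highest arrays for 4 of the 5 markers of the loop of Henle. Umod, the uromodulin gene of the thick ascending limb, had ratios of -1.46, -1.10, 0.16 and -1.67 in WT and -1.48, -1.68, -1.04 and -0.58 in KO. Slc12a1, the sodium-potassium-chloride cotransporter gene of the same segment, had -1.37, -1.57, -0.06 and -1.62 in WT and -0.45, -1.31, -0.32 and 0.07 in KO. The claudin gene Cldn16 of that segment had 0.31 on WT 3 and -0.02 on KO 4, against -0.73 to -0.33 on the other 6 arrays. Slc12a3, of the distal convoluted tubule, had 0.30 and 0.22 there. Nos1, of the macula densa, went another way, with 0.22 on WT 2, 0.17 on WT 3 and -0.29 on KO 4, and had no value on KO 3. The median of the 5 loop markers was 0.17 on WT 3 and -1.10 to -0.33 on the other WT arrays, and -0.02 on KO 4 and -0.51 to -0.45 on the other KO arrays. The order was not particular to the loop, since the median of the 8 intercalated cell markers was also highest on WT 3 (0.15) and KO 4 (0.11), against -0.72 to -0.06 on the other arrays. Of those 8, the proton pump subunit genes Atp6v1g3 (0.19 on WT 3 and 0.05 on KO 4) and Atp6v1b1 (0.12 and 0.20) had these as their 2 highest arrays. The part of either cell type in the spread of Ptger3 was not tested.

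**Figure D2:**
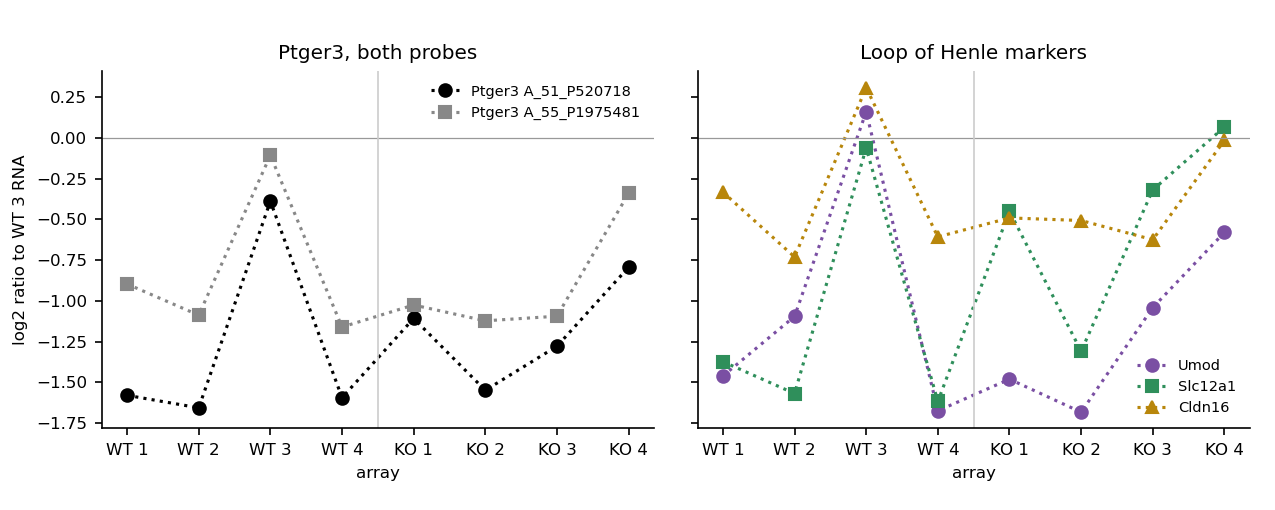
Log2 ratio to the RNA of WT replicate 3 (y axes, same scale) on the 8 arrays (x axes), for the 2 probes of Ptger3 on the left and for 3 markers of the thick ascending limb on the right. Dotted lines join the arrays of a probe only to guide the eye. WT 3 stands above the other WT arrays, and KO 4 above the other KO arrays, in both panels.

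Ptger4 encodes EP4, the other stimulatory receptor, and its difference was close to 0. Its log2 ratio was 0.04, 0.29, 0.12 and 0.11 in WT and -0.01, 0.10, 0.15 and 0.32 in KO, with the groups fully mixed. The difference was 0.0011 ± 0.10 (SE; 95% interval -0.22 to 0.22, limma adjusted p = 0.997), so in this fit the interval left room for 0.22 on the log2 scale either way. Without KO 2 it was 0.02. Its Cy5 intensity above local background was 87 to 134 on the WT arrays.

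Among the synthesis genes, Ptgs1 and Ptgs2 encode the cyclooxygenases, of which Ptgs1 is the one made constitutively in collecting duct. The ratio of Ptgs1 was 0.23, 0.24, 0.19 and 0.70 in WT and 0.61, 0.52, 0.23 and 0.60 in KO. WT 4 was the highest array of all and lay with KO 1, KO 2 and KO 4, while KO 3 lay with the other WT arrays. KO minus WT was 0.15 ± 0.14 (SE; 95% interval -0.15 to 0.46, limma adjusted p = 0.523), and it was 0.14 without KO 2.

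Ptgs2, the inducible cyclooxygenase, was printed as 10 spots on each array. Its ratio was -0.10, -0.15, -0.12 and -0.12 in WT and -0.17, -0.19, -0.05 and 0.07 in KO. The WT arrays lay close together, with an SD of 0.02 that 99.5% of tested probes exceeded. That rank is for a mean of up to 10 spots at low signal, whereas the other member probes had 1 spot on each array. Between 6 and 10 of the spots on an array were unmarked, and the SD among them was 0.06 to 0.14. KO minus WT was 0.04 ± 0.08 (SE; 95% interval -0.15 to 0.23, limma adjusted p = 0.807), and 0.07 without KO 2. The signal was low, with a Cy5 intensity above background of 37.5 to 48.5 in WT, and with a normexp offset of 0 in place of 50 the difference was 0.10 (adjusted p = 0.745).

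Ptges, the inducible prostaglandin E synthase, was the member that differed most between KO arrays and between its own probes. At the brighter probe (A_55_P1974193) the log2 ratio was 0.00, -0.11, -0.08 and -0.14 on WT 1 to WT 4 and 0.86, -0.08, 0.64 and 1.26 on KO 1 to KO 4. KO 1, KO 3 and KO 4 were above every WT array and KO 2 lay among the WT arrays. The WT mean was -0.08 ± 0.06 (SD, n = 4) and the KO mean 0.67 ± 0.56 (SD, n = 4). They differed by 0.75 ± 0.23 on the log2 scale (SE; 95% interval 0.23 to 1.28), or 1.68-fold higher in KO, with a limma adjusted p of 0.124 and an unadjusted p of 0.0097. With median centring in place of loess the difference was 0.16 (adjusted p = 0.716), where the median of all probes was -0.28. Without KO 2 it was 1.00 (adjusted p = 0.0029), or 2.00-fold, where 10.1% of all probes tested were called as higher. Without KO 3 it was 0.76 (adjusted p = 0.196), where 0.0265% of 30147 probes were called. Without both arrays it was 1.14 (adjusted p = 0.0010), where 24.9% of 29238 probes were called, 13.8% as higher.

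The second probe of Ptges (A_55_P1974189), which carries the same transcript name (NM_022415), did not show that pattern. Its ratio was 0.14, 0.03, 0.36 and 0.17 in WT and -0.09, 0.17, -0.25 and 0.17 in KO, with KO 2 and KO 4 inside the WT range and KO 1 and KO 3 below it. The log2 difference was -0.18 ± 0.12 (SE; 95% interval -0.44 to 0.09, limma adjusted p = 0.394), and without KO 2 it was -0.23 (adjusted p = 0.213). With the mean of both probes in place of the brighter one, the difference of Ptges was 0.29. Neither probe was saturated on any array. At the brighter probe the background-corrected Cy5 intensity was 12087 to 14370 in WT and 17297 to 21603 in KO. KO 2 had the lowest of the KO values, above every WT array. The Cy3 intensity of the shared reference was 3455.5 on KO 2 and 2470.5, 2821.5 and 2193 on KO 1, KO 3 and KO 4. In WT it was 2329 to 3238. With Cy5 alone in place of the ratio, the difference at this probe was 0.55 (limma adjusted p = 0.311).

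**Figure D3:**
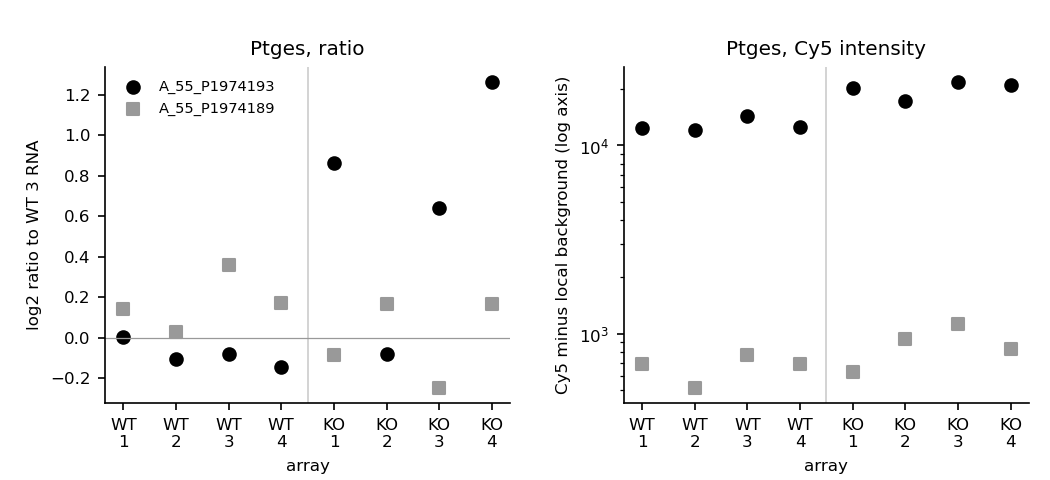
The 2 probes of Ptges on the 8 arrays: the log2 ratio to the RNA of WT replicate 3 on the left and the Cy5 intensity minus local background on a log axis on the right. Black circles show the brighter probe and grey squares the second probe. The ratio of the brighter probe is raised on KO 1, KO 3 and KO 4, and the second probe has no such rise. Intensities of different probes are not comparable as levels.

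The array pattern of the brighter Ptges probe was shared by many other probes, a count made after its values were seen. Of 28476 other probes, 707 (2.48%) had a correlation above 0.95 with it over the 8 arrays, whereas 22 (0.0773%) had one with the second probe. For 143 of the genes among the 707 another probe was tested, and 18 of these 192 other probes also had the pattern. Which of the 2 Ptges probes reads its mRNA was not tested.

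Hpgd encodes the dehydrogenase that inactivates prostaglandin E2. At its brighter probe (A_51_P458778) the ratio was 0.00, -0.13, -0.05 and -0.04 in WT and -0.13, 0.38, 0.09 and 0.34 in KO, so 3 of the 4 KO arrays lay above all WT arrays and KO 1 lay with the lowest. KO exceeded WT by 0.22 ± 0.12 on the log2 scale (SE; 95% interval -0.04 to 0.49, limma adjusted p = 0.275), and 0.15 without KO 2. The second probe (A_55_P2035424) had 0.07, -0.03, -0.04 and 0.09 in WT and 0.13, 0.03, 0.14 and 0.22 in KO, a difference of 0.11 ± 0.08 (SE; adjusted p = 0.439). Both probes leaned the same way and neither passed. The second probe was dim, with a Cy5 intensity above background of 53 to 81 and a Cy3 intensity of 9 to 15 in WT. The ratios of the 2 probes had a correlation of 0.37 over the 8 arrays.

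Avpr2 encodes the V2 receptor, the receptor of principal cells for vasopressin, and was read alike by 2 probes. At the brighter probe (A_55_P1994462) the ratio was -0.43, 0.17, 0.31 and 0.43 in WT and -0.35, -0.03, -0.77 and 0.13 in KO. At the second (A_51_P306933) it was -0.15, 0.24, 0.39 and 0.56 in WT and -0.01, 0.12, -0.40 and 0.29 in KO. KO 3 was the lowest array and WT 4 the highest at both probes, and WT 1 lay among the KO arrays. The log2 difference was -0.38 ± 0.23 (SE; 95% interval -0.89 to 0.13, limma adjusted p = 0.336) at the brighter probe and -0.26 ± 0.18 (SE; adjusted p = 0.400) at the second. At the brighter probe it was -0.45 without KO 2, -0.21 without KO 3 and -0.56 without WT 1, and none of these passed the test.

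Avpr1a encodes the V1a receptor, which acts through calcium and is known from vascular smooth muscle and intercalated cells. Its ratio was -0.87, -0.40, 0.06 and -0.67 in WT and -0.82, -0.53, -0.48 and -0.47 in KO. WT 3 was above all 7 other arrays, by 1.38 to 1.90-fold. WT 3 was likewise the highest array at both Ptger3 probes, at the second Ptges probe and at 13.7% of all 28477 probes. The remaining WT arrays spanned the KO arrays for Avpr1a. The log2 difference was -0.10 ± 0.18 (SE; 95% interval -0.52 to 0.31, limma adjusted p = 0.764). It was 0.07 without WT 3 and -0.12 without KO 2, so its sign rested on WT 3. The median of the 8 intercalated cell markers was 0.15 on WT 3 and -0.72 to -0.36 on the other WT arrays, and -0.32 to 0.11 on the KO arrays. That of the 11 stroma and smooth muscle markers went the other way within WT. It was 0.04 on WT 3 and 0.88 to 0.94 on the other WT arrays, and -0.09 to 1.21 on the KO arrays. The part of either cell type in the WT 3 value of Avpr1a was not tested.

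**Figure D4:**
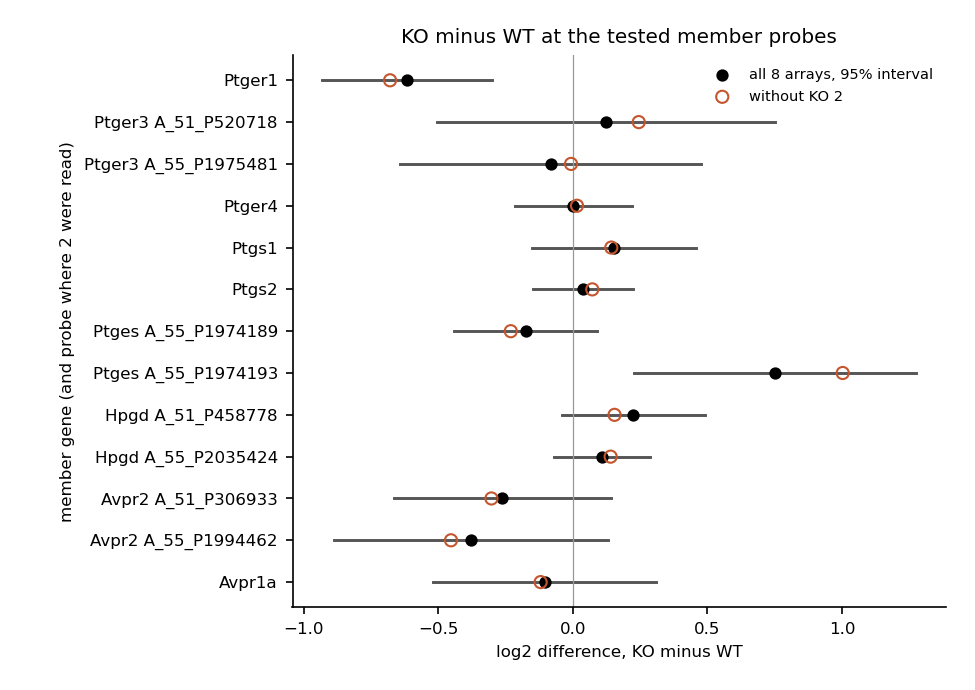
Log2 difference, KO minus WT, at the 13 tested member probes (filled points, with the 95% interval of the limma fit as lines) and the same difference without KO 2 (open circles). The intervals of Ptger1, from -0.93 to -0.30, and of the brighter Ptges probe, from 0.23 to 1.28, lie on one side of 0, but neither passed the adjustment over all probes with all 8 arrays.

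The other genes of these pathways also held no call. Of 60 listed, 59 were on the arrays by name (all but Pla2g2a), 54 had a tested probe and 0 passed limma's adjusted p of 0.05, with 0.102 as the lowest value. Of the 54, 22 had KO minus WT above 0 and 32 below, with a median of -0.04 against -0.02 over all tested probes, and 15 had an unadjusted p under 0.05, as did 23.8% of all tested probes. Calls without KO 2 are given below for single genes, and in that fit 22.5% of all probes tested were called, 10.1% as higher and 12.4% as lower. The groups were fully apart for 3 genes that were higher in KO, as for 3.58% of all probes, and for 3 that were lower, as for 7.82%. Avp, Avpr1b, Ptgdr, Ptgdr2 and Scnn1g were not well above background on enough arrays to test, Avp and Avpr1b on 0 WT arrays and 1 KO array each.

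Among 11 genes of prostanoid synthesis beside the members, 3 had a positive and 8 a negative difference, with a median of -0.14. Ptges3, a prostaglandin E synthase gene, had -0.09 ± 0.09 (SE) at its brightest probe and -0.18 at another, with KO and WT overlapping. At its other 2 probes it had -0.39 and -0.29 (limma adjusted p = 0.118 and 0.137). All KO arrays were below all WT arrays there, as for 7.82% of all probes. Ptgds, the lipocalin-type prostaglandin D synthase, had 0.60 ± 0.18 (SE; adjusted p = 0.121). Ptges2 and Prxl2b, which encode a prostaglandin E synthase and a prostaglandin F synthase, had -0.40 ± 0.13 and -0.35 ± 0.12 (SE; adjusted p = 0.131 and 0.136), and both passed without KO 2 (adjusted p = 0.0143 and 0.0182), where 12.4% of all probes were called lower. Among 3 other prostanoid receptors the median was -0.01, with the thromboxane receptor gene Tbxa2r at -0.36 ± 0.24 (SE).

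Transport of prostaglandins held the smallest adjusted p of the listed genes. Slco2a1, which takes prostaglandin E2 up into cells for breakdown, had ratios of 0.01, -0.60, -0.36 and -0.22 in WT and 0.22, 0.32, 0.38 and 0.21 in KO. All 4 KO arrays, KO 2 included, were above all WT arrays. KO minus WT was 0.57 ± 0.13 (SE; limma adjusted p = 0.102), or 1.48-fold, and without KO 2 it was 0.56 (adjusted p = 0.0226), where 10.1% of all probes were called higher. Abcc4, an exporter of prostaglandins, had -0.16, -0.16, -0.14 and -0.29 in WT and 0.20, 0.04, 0.10 and -0.09 in KO, also without overlap, and a difference of 0.25 ± 0.09 (SE; adjusted p = 0.144). The 5 genes of transport and breakdown had a median of 0.07.

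Of 15 genes of cyclic AMP signalling behind V2, EP2 and EP4, 4 had a positive and 11 a negative difference, with a median of -0.04. Prkaca and Prkar2b, a catalytic and a regulatory subunit of protein kinase A, were lower on all KO arrays, at -0.31 ± 0.11 and -0.31 ± 0.10 (SE; adjusted p = 0.137 and 0.123). The other 2 probes of Prkar2b had -0.24 and -0.13, with KO and WT overlapping. Adcy6, the adenylyl cyclase tied to V2 in collecting duct, had 0.13 on KO 2, inside the WT range of -0.09 to 0.14, and 0.68 to 0.78 on the other KO arrays, a difference of 0.56 ± 0.15 (SE; adjusted p = 0.108). Without KO 2 it was 0.71 (adjusted p = 0.0022), again with 10.1% of all probes called higher.

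Of 11 genes of calcium and inhibitory G protein signalling behind EP1, EP3 and V1a, 8 had a positive and 3 a negative difference, with a median of 0.22. The inositol trisphosphate receptor genes Itpr1, Itpr2 and Itpr3 had 0.44 ± 0.16, 0.45 ± 0.18 and 0.37 ± 0.12 (SE; adjusted p = 0.149, 0.176 and 0.124). All 3 passed as higher without KO 2 (adjusted p = 0.0042, 0.0440 and 0.0045), as did 10.1% of all probes. Itpr3 did not overlap between groups, but KO 2, at -0.44, was close to the WT arrays, at -0.50 to -0.45. Gnai2, an inhibitory G protein subunit, had -0.45 ± 0.13 (SE; adjusted p = 0.114) without overlap, and Gna11, a subunit that acts on phospholipase C, had -0.34 ± 0.11 (SE; adjusted p = 0.132). Both passed as lower without KO 2 (adjusted p = 0.0110 and 0.0101), as did 12.4% of all probes.

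The genes that vasopressin is known to act on in principal cells had a median of -0.09, with 2 of 6 tested above 0 at their brighter probe. Aqp2, the water channel gene, had -0.49, 1.10, 0.44 and 0.71 in WT and 0.43, 0.39, 0.11 and 0.78 in KO, a difference of -0.01 ± 0.30 (SE; adjusted p = 0.986). WT 1 was the lowest array for Aqp2, as it was of the WT arrays for Avpr2. Aqp3 had -0.21 ± 0.15 (SE), Scnn1b -0.21 ± 0.11 and Scnn1a 0.58 ± 0.30. Slc14a2, the urea transporter gene, had 0.61 ± 0.19 (SE; adjusted p = 0.123) at its brighter probe and 0.20 at the other. Aqp4, another water channel gene, had -0.16 ± 0.28 (SE) at its brighter probe and 0.58 ± 0.19 (SE; adjusted p = 0.131) at the other, where all KO arrays were above all WT arrays. The 3 vasopressin and oxytocin genes that could be tested, Oxt, Oxtr and Lnpep, had a median of -0.05.

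**Figure D5:**
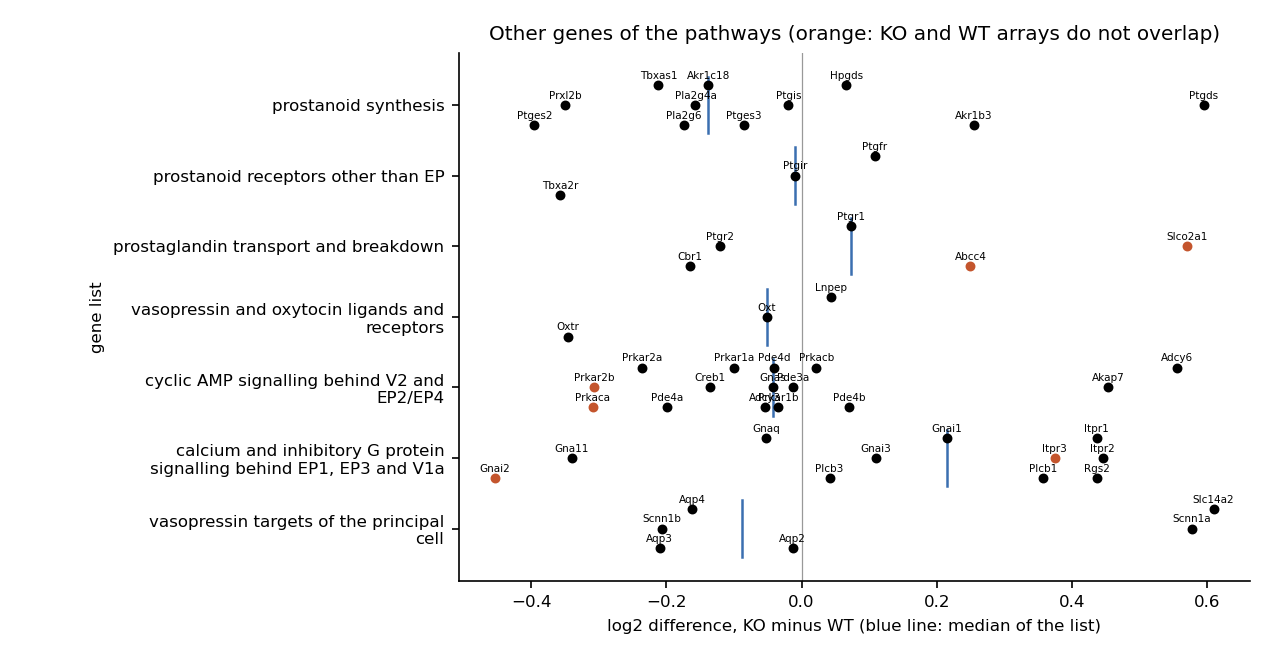
Log2 difference, KO minus WT (x axis), of the 54 tested genes of the pathways other than the members, each at its brightest probe, by list (rows; heights within a row only separate labels). Blue lines give list medians, and orange marks the 6 genes without overlap of KO and WT arrays. No gene passed the adjusted p of 0.05 with all 8 arrays.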

How the data were processed

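Each of the 8 deposited scanner files gives the intensity of every spot on 1 array, annotated for mm9 per the file headers. Per the submitters' processing notes, the authors used Agilent Feature Extraction version 10.7.3.1. The deposited scanner ratio and the series values, both on a log10 scale, were made by the authors' software with background and dye correction, per the file headers, and served as alternatives. Median intensities of both channels were corrected with normexp (offset 50) and loess (span 0.3, no weight on control spots). The software was R 4.3.3 with jsonlite 2.0.0, data.table (version 1.17.8) and limma 3.58.1. Marked spots (non-uniform or population outliers, in either channel) were removed and the spots of a probe averaged. A tested probe had Cy5 well above background on 4 or more of 8 arrays, counting an array where no fewer of its spots passed than failed, with values on at least 3 arrays per group. KO and WT were compared with lmFit and eBayes. P-values were 2-sided and were adjusted by Benjamini-Hochberg over 31667 probes, with a threshold of 0.05. In fits with arrays left out or with another filter or unit, the adjustment was over the probes or genes tested there. Every adjusted p in the text comes from this limma test or from such an alternative fit of it.

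Of 37850 systematic names 21717 matched the RefSeq table of GRCm38.p6, and the others kept the files' names. The members and lists were chosen with earlier results of these data known. All members were named, any tested gene of the pathway lists or cell type markers could be named, and for a member whose groups did not overlap the 3 symbols with the highest correlation were named. In simulated data for KO minus WT over 31667 probes, 85 of 100 probes changed by log2 1 and 97 of 100 changed by log2 2 were recovered, with 6 false calls. The simulated noise was independent between probes and had the same SD in both groups. It held no difference shared by the probes of an array, such as that of KO 2. These counts check the code and do not give the power of the test on the real arrays. Samples with the same replicate number had correlations of their deviations of -0.21, 0.05, 0.11 and -0.01, so the numbers were not taken to pair the samples. Alternatives covered background correction, dye and array normalisation, filters, the variance model, array weights, probes of a gene, marked spots, a replicate block and arrays left out. Figures were drawn with matplotlib 3.10.9. The number of arrays limits the precision.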

Additional observations from a re-analysis of the deposited data

Results flagged for a closer look

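Among 28 sets of 4 arrays (14 member probes in 2 groups), 4 held 1 array far from the other 3, by a gap whose share of the set's range exceeded Dixon's 95% critical value. For independent sets of normally distributed values about 1 in 20 is expected. These sets are not independent, since some genes enter with 2 probes, and they include Ptger2, which was at background. The share of such sets over all tested probes was not counted, so the count is not a result about these genes. WT 3 had a log2 ratio of -0.39 at the brighter Ptger3 probe, against -1.66 to -1.58 on the other WT arrays. At the second Ptger3 probe KO 4 had -0.34, against -1.12 to -1.03 on the other KO arrays. WT 4 had 0.70 for Ptgs1, against 0.19 to 0.24. KO 1 had -0.82 for Avpr1a, against -0.53 to -0.47.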

How the results depend on the processing

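Over all probes, the count past the threshold was 2 with all arrays. It was 1 with a normexp offset of 0, without background subtraction or with the mean over probes of a gene, 5 with the scanner log ratio or the series value table, 6 with scaling between arrays, 4 without a filter and 13 with an intensity trend and robust hyperparameters. It was 0 with median centring, Cy5 alone or the replicate block (limma; 9043, 4969 and 7133 at an unadjusted p under 0.05), 5837 with array weights, 7284 without KO 2 and KO 3, and 1 to 6180 with 1 array left out. Of the 13 tested member probes, 0 passed with all arrays, 2 with array weights or without KO 2 and KO 3, and 0 to 2 with 1 array left out. Of all tested probes, 5837 of 31667 passed with array weights, 24.9% without KO 2 and KO 3, and 22.5% without KO 2. The 2 member probes were Ptger1 (-0.60 with array weights, adjusted p = 0.0170) and the brighter Ptges probe (0.94, adjusted p = 0.0139). Over all 24 alternatives, Ptger1 stayed below 0 (-1.01 to -0.49, adjusted p 0.0124 to 0.311) and Avpr2 below 0 (-0.69 to -0.21). Ptges, read at its brighter probe or as the mean over its probes, stayed above 0 (0.16 to 1.14, adjusted p 0.0010 to 0.716). The second Ptges probe alone was at -0.18 with all arrays.

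Median centring moved the median of all probes to -0.28 and Cy5 alone to -0.19. With these, in that order, Ptger3 was at -0.14 and -0.39, Ptger4 at -0.20 and -0.45 and Ptgs2 at -0.0873 and -0.21, and Ptgs1 was at -0.23 with median centring and Hpgd at -0.23 with Cy5 alone. Ptger4 was at -0.0032 with offset 0, at -0.21 with the scanner log ratio or the series value table, and at -0.0275 with scaling. With 1 array left out, Ptger3 ranged from -0.0069 to 0.43, Ptger4 from -0.0602 to 0.0506, Ptgs2 from -0.0115 to 0.0720 and Avpr1a from -0.24 to 0.0726. Where these signs turned, the 95% interval of the reported difference included 0, and the cause was not tested. Array number and, for Ptger2, Ptgs2, the second Hpgd probe and the Cy3 channel of Ptger4, signal near background limit what could be read.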
